A study of Mus musculus with 12 samples.

Results

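Resident perivascular macrophage genes are transcripts that mark the long-lived macrophages lying along the blood vessels of a tissue. The set consisted of Lyve1, Timd4, Folr2, Cd163, Mrc1, F13a1, Cbr2, Pf4, Gas6 and Stab1, and its members were found by their symbols. All 10 were among the 24422 genes counted in each library, and all 10 were among the 16713 genes that passed the filter on low counts. The study measured poly-A selected RNA of adipose stromal vascular cells from mice (what is left of fat tissue after the fat cells: progenitors, vessel cells and leukocytes) in 12 libraries that form 4 groups of 3. SD mCherry mice had the genotype p21+/mcherry and ate a standard diet. HFD mCherry mice had the same genotype and ate a high-fat diet. HFD Tert mice had the genotype p21+/mcherry-Tert and HFD TertCi mice the genotype p21+/mcherry-TertCi, both on the high-fat diet. Tert is the reverse transcriptase subunit of telomerase, and TertCi is its catalytically inactive form. Every group carried an altered allele of p21 (Cdkn1a, a cell cycle inhibitor), and the p21 promoter, not a macrophage promoter, drove Tert and TertCi. Where the series' design text has p21+/- for that control and the sample labels have p21+/mcherry, the labels were followed. Age, sex and fat depot are not given in the sources used here. Nothing in the labels says whether replicates came from separate mice, so p-values measure the spread between these samples.

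Macrophages that settle along vessels take up proteins, debris and dying cells through scavenger and lectin receptors, and adipose tissue holds such cells in lean animals. They are told apart from the macrophages that gather around dying fat cells in obesity, which are marked by genes such as Trem2, a lipid-sensing receptor, and Spp1, the secreted protein osteopontin. Of the members, Folr2, Cd163, Mrc1, Timd4, Lyve1 and Stab1 encode surface receptors, Pf4 and Gas6 encode secreted ligands, and F13a1 and Cbr2 encode enzymes. Several are also used by other cells of the stromal vascular fraction: Lyve1 and Stab1 by lymphatic and sinusoidal endothelium, Gas6 by vascular and stromal cells, and Pf4 by platelets.

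The windows upstream of the transcription start are shown for 3 members that moved together over the libraries (Folr2, Mrc1 and Pf4) and for Gas6, which did not move with them between groups. The sequences are from RefSeq on build GRCm38.p6, which held a window for 9 of the 10 members and none for Lyve1. Each is the 250 bases before the start, written 5′ to 3′ on the gene's own strand. Capitals mark GAGGAA or its reverse complement TTCCTC, a form of the core of sites bound by the myeloid factor PU.1. They also mark TGCTGA or its reverse complement TCAGCA, a form of the core of sites bound by MAF factors. Other forms of these sites were not searched for and stay in lower case, so a window without capitals may hold them.
Folr2, chr7:101857191-101857440, minus strand: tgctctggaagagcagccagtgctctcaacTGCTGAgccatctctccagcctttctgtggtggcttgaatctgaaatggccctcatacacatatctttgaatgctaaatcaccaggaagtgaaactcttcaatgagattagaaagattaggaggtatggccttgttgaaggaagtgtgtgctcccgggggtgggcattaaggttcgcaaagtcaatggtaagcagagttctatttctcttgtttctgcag
Mrc1, chr2:14229164-14229413, plus strand: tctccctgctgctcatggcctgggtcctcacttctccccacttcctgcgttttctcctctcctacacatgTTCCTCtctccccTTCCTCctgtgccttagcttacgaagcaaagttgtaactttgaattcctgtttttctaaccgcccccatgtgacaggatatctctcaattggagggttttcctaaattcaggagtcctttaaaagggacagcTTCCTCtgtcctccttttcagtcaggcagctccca
Pf4, chr5:90772185-90772434, plus strand: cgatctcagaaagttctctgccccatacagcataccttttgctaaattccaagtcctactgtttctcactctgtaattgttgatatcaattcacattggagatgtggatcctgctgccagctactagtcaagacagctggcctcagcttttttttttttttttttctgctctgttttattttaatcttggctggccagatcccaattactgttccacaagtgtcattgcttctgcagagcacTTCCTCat
Gas6, chr8:13494536-13494785, minus strand: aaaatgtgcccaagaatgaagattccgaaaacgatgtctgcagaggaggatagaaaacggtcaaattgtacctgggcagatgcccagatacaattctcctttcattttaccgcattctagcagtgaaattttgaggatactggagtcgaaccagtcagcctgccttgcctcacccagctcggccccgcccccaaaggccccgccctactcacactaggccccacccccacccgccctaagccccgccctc
The Mrc1 window held 3 matches to the PU.1-type core, 180, 167 and 35 bases before the start, and the Pf4 window held 1, 8 bases before it. The Folr2 window held 1 match to the MAF-type core, 220 bases before the start. Over all 9 windows, 5 genes (Mrc1, F13a1, Cbr2, Pf4 and Stab1) had a PU.1-type match and 3 (Timd4, Folr2 and Stab1) a MAF-type match. Among 32851 RefSeq promoter windows of the same length, 23.3% held the first core and 16.1% the second. The matches describe letters only and were not tested as binding sites.

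The libraries held 16430330 to 19486965 counts, and the 10 members together took 6586 to 22527 counts, or 0.0384% to 0.133% of a library. Tert had 8 to 78 counts in the 6 libraries of the mCherry groups and 131 to 304 in the 6 libraries of the Tert and TertCi groups, which matched the labels. All 18 genes of a general macrophage list (among them Adgre1, Csf1r, C1qa and Lyz2) were detected, and their mean log2 CPM (counts scaled to library size) was 7.05 ± 0.60 for HFD mCherry against 5.09 ± 0.17 for SD mCherry, with HFD TertCi at 5.56 ± 0.39 and HFD Tert at 5.31 ± 0.96 (SD, n = 3 each). Libraries stood apart in genes of the epididymis and of epithelium, such as Crisp1, which ran from 0 to 14780 CPM. The mean of that list, of which 13 of 16 genes were tested, ran from -0.56 to 10.27 log2 CPM, and it was highest in HFD mCherry replicate 15 and SD mCherry replicate 3. Because these are bulk samples, fewer cells of a type and less RNA per cell cannot be told apart.

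Per kilobase of exon, Gas6 and Pf4 had the highest mean levels over the 12 libraries, at 121 and 112 CPM per kb. Cbr2 followed at 45.1 CPM per kb, then Folr2 at 28.0 and Lyve1 at 21.6. Stab1 at 14.5, Mrc1 at 14.1 and F13a1 at 10.7 CPM per kb lay close together, and Timd4 at 3.99 and Cd163 at 3.58 CPM per kb were lowest. The members also differed in how far their libraries spread. Folr2 differed 32.7-fold between its highest and lowest library, F13a1 15-fold and Cd163 12.7-fold, whereas Gas6 differed 3.94-fold and Cbr2 2.22-fold.

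**Figure D1:**
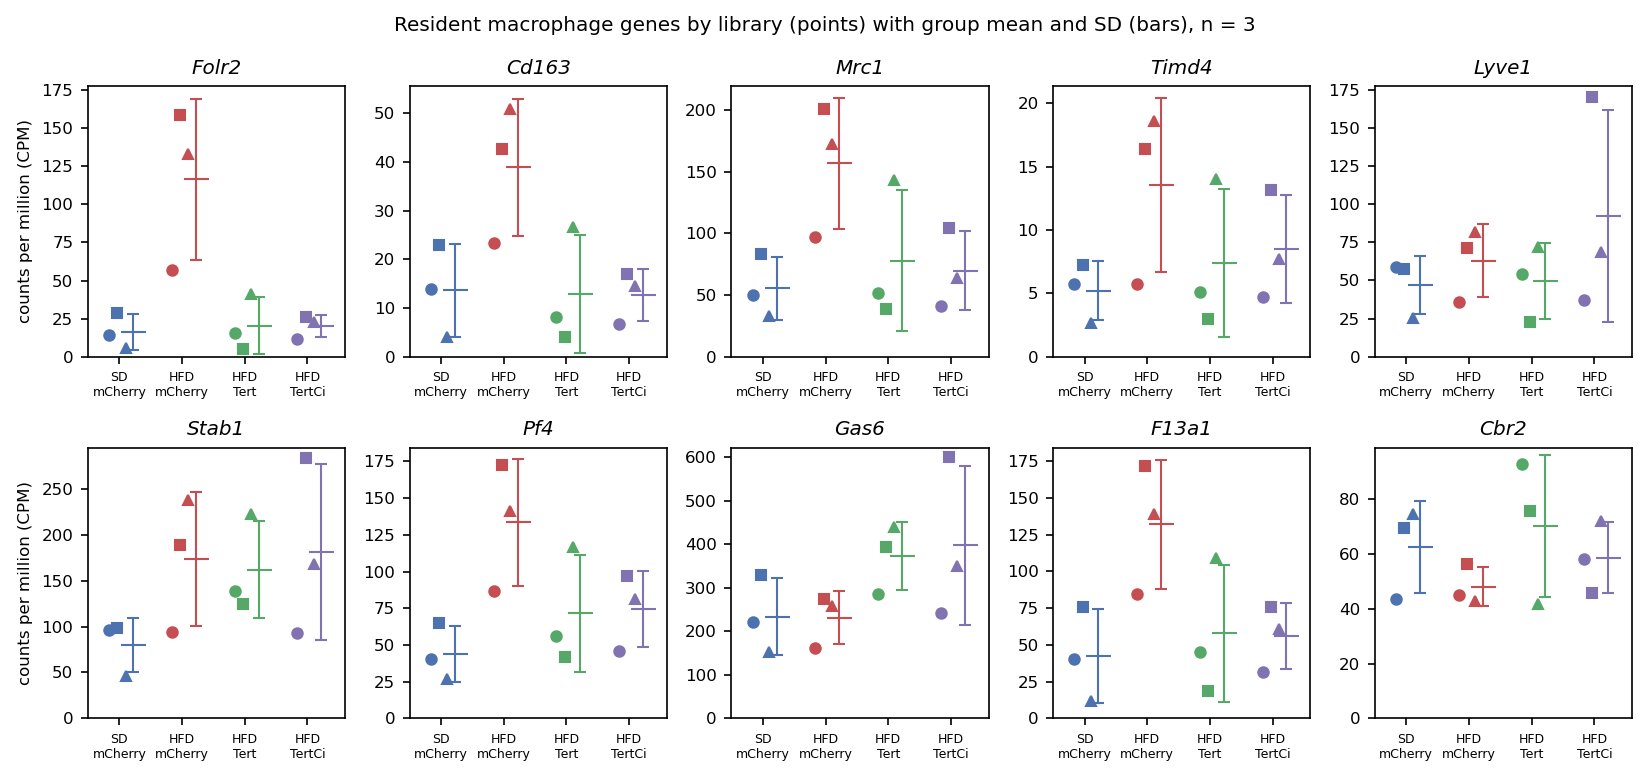
CPM (linear axis from 0) of each of the 10 genes in the 12 libraries, with 1 point per library, a marker shape for each replicate of a group, and the group mean with its SD beside the points (n = 3). Folr2, Cd163, Mrc1, F13a1 and Pf4 were higher in all 3 HFD mCherry libraries than in all 3 SD mCherry libraries, while Gas6 and Cbr2 overlapped between those groups.

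On the high-fat diet, 8 of the 10 genes had a higher mean than on the standard diet, with a median log2 fold change of 1.44 beside a median of -0.08 over all 16713 genes. Folr2 differed most, at 116 against 16.3 CPM. The groups did not overlap for 5 members (Folr2, Cd163, Mrc1, F13a1 and Pf4), all higher in HFD mCherry, against 13.9% of all genes that were higher without overlap. None of the 10 (0 members) passed an adjusted p of 0.05 in edgeR's quasi-likelihood test, a threshold that 0.0479% of all genes passed. At an unadjusted p under 0.05, 5 members were higher (Folr2, Mrc1, F13a1, Pf4 and Stab1) beside 14.1% of all genes, and 0 were lower, beside 10% of all genes. DESeq2 called 2 of the 10 higher, Folr2 and Pf4, as it did 7.88% of all genes, and limma-voom called 0 of the members and 0% of all genes. Scaling by library size alone moved the median of all genes in this comparison from -0.08 to -0.27.

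Beside the HFD mCherry libraries, which both of the following comparisons share, 8 members had a lower mean in HFD Tert and 6 in HFD TertCi. The median log2 fold change of the members was -0.89 in HFD Tert and -0.75 in HFD TertCi, and that of all genes was -0.05 and -0.04. In HFD Tert, Folr2 was lower and Gas6 higher without overlap, beside 11.1% and 9.99% of all genes. In HFD TertCi, Folr2, Cd163 and F13a1 were lower without overlap, beside 12% of all genes. With edgeR, 0 of 10 were called in either comparison, where 0% and 0.012% of all genes were called. At an unadjusted p under 0.05, Folr2 was the only member in either comparison, and it was lower in both, beside 9.75% and 8.92% of all genes. DESeq2 called 1 of the 10, Folr2, in each, beside 3.15% and 2.79% of all genes that it called lower. Limma-voom called 0 members, and 0% and 0.012% of all genes. Set against SD mCherry, 0 members and 0% of all genes were called by edgeR in HFD Tert and in HFD TertCi. At an unadjusted p under 0.05 the members numbered 0 in HFD Tert, beside 15.8% of all genes, and 1 in HFD TertCi (Stab1, higher), beside 6.77% of all genes.

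**Figure D2:**
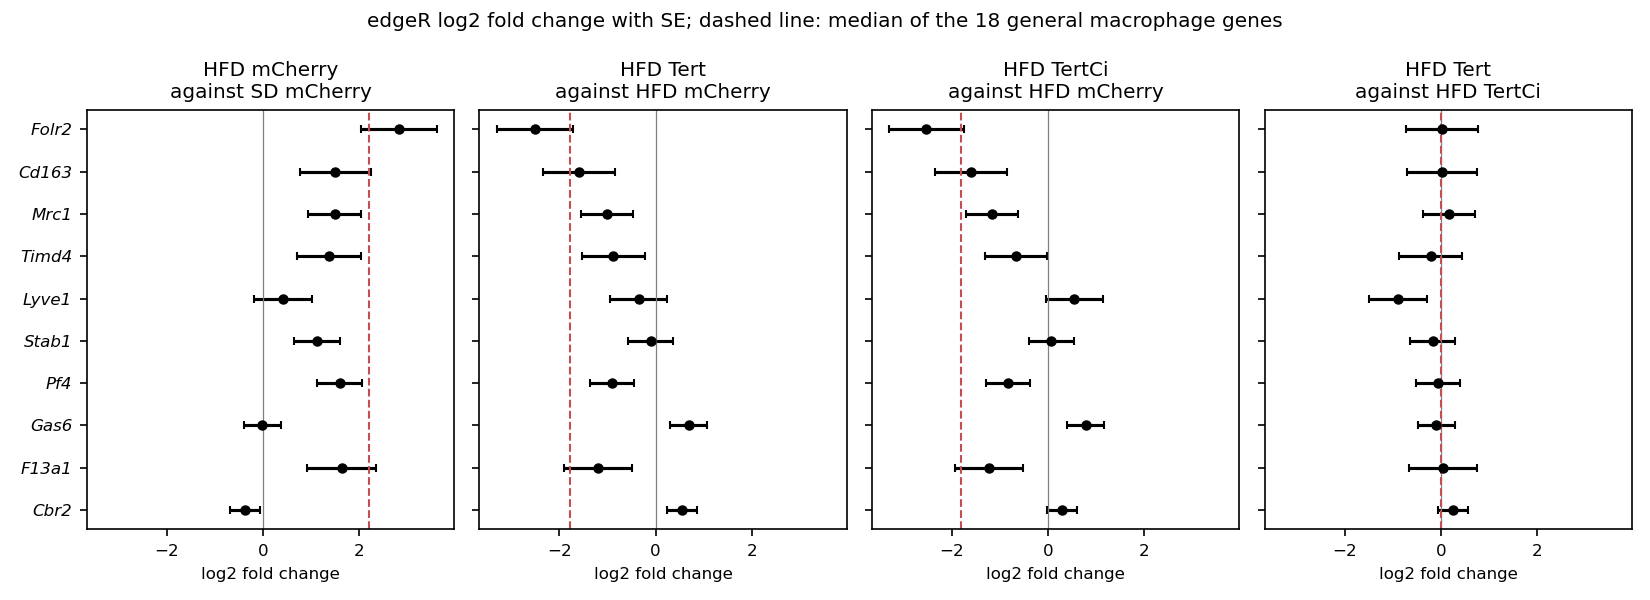
The edgeR log2 fold change of each gene (points) with its SE (bars) in 4 comparisons, each with the median of the 18 general macrophage genes as a dashed line. Folr2 lies beyond that line in the first 3 comparisons, at 2.83, -2.50 and -2.53, Gas6 lies at -0.02, 0.69 and 0.78, and between HFD Tert and HFD TertCi the members run from -0.89 to 0.26.

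Folr2 (chr7:101839988-101857194, minus strand, GRCm38 in GENCODE M21) encodes folate receptor beta, a folate-binding surface protein of resident macrophages. Its level was 14.4, 29.0 and 5.5 CPM in SD mCherry replicates 1, 2 and 3, and 57.0, 159 and 133 CPM in HFD mCherry replicates 15, 17 and 20. It was 15.7, 4.86 and 41.0 CPM in HFD Tert replicates 25, 26 and 27, and 11.9, 25.9 and 22.6 CPM in HFD TertCi replicates 30, 31 and 33. The 3 HFD mCherry libraries were thus above all 9 others. With edgeR, its log2 fold change was 2.83 ± 0.79 (SE) for diet, with an adjusted p of 0.0891. It was -2.50 ± 0.78 for HFD Tert (adjusted p = 0.213) and -2.53 ± 0.78 for HFD TertCi (adjusted p = 0.224) against HFD mCherry. Over 7 other settings the edgeR, DESeq2 or limma-voom adjusted p ran from 0.00356 to 0.117 for diet, from 0.00664 to 0.264 for HFD Tert and from 0.0212 to 0.270 for HFD TertCi. Folr2 had the smallest p of the members in an F-test over the 4 groups (adjusted p = 0.132, edgeR), in which 0 of 10 members and 0.012% of all genes were called. Its annotated span overlaps the antisense gene Gm10602 and the pseudogene Gm45319, and since the use of strand in counting is not given in the sources used here, a share of its counts is uncertain.

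Cd163 (chr6:124304656-124330527, plus strand) encodes the scavenger receptor that takes up haemoglobin bound to haptoglobin. Its level was 14.0, 23.0 and 4.0 CPM in SD mCherry and 23.3, 42.6 and 50.8 CPM in HFD mCherry. It was 8.17, 4.0 and 26.7 CPM in HFD Tert and 6.68, 17.1 and 14.4 CPM in HFD TertCi. The lowest HFD mCherry library was barely above the highest SD mCherry library and was below 1 HFD Tert library. The log2 fold changes were 1.51 ± 0.74 for diet (adjusted p = 0.237), -1.59 for HFD Tert (adjusted p = 0.321) and -1.61 for HFD TertCi (adjusted p = 0.349), all by edgeR.

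Mrc1 (chr2:14229392-14332057, plus strand) encodes the mannose receptor CD206, an endocytic lectin, and its span includes the microRNA gene Mir511. Its level was 50.4, 83.4 and 32.8 CPM in SD mCherry and 97.2, 200.3 and 172 CPM in HFD mCherry. It was 51.6, 38.7 and 143 CPM in HFD Tert and 41.5, 104 and 63.6 CPM in HFD TertCi. All HFD mCherry libraries were above all SD mCherry libraries, and HFD Tert replicate 27 and HFD TertCi replicate 31 reached into the HFD mCherry range. The log2 fold changes were 1.49 ± 0.55 for diet (adjusted p = 0.149), -1.01 for HFD Tert (adjusted p = 0.373) and -1.17 for HFD TertCi (adjusted p = 0.354) by edgeR.

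Timd4 (chr11:46810800-46844332, plus strand) encodes TIM-4, a receptor for the phosphatidylserine exposed on dying cells. Its counts were low, from 46 to 311 per library. Its level was 5.75, 7.22 and 2.66 CPM in SD mCherry and 5.74, 16.4 and 18.6 CPM in HFD mCherry. It was 5.14, 2.99 and 14.0 CPM in HFD Tert and 4.74, 13.1 and 7.72 CPM in HFD TertCi. HFD mCherry replicate 15 was at the level of the SD mCherry libraries, so the groups overlapped. For diet the edgeR log2 fold change was 1.38 ± 0.66 (adjusted p = 0.229), and those for HFD Tert and HFD TertCi were -0.88 and -0.67 (adjusted p = 0.514 and 0.663).

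Lyve1 (chr7:110850607-110863239, minus strand) encodes a hyaluronan-binding receptor shared by vessel-lining macrophages and lymphatic endothelium. Its level was 59.1, 57.4 and 25.3 CPM in SD mCherry and 36.1, 71.4 and 81.7 CPM in HFD mCherry. It was 54.5, 22.5 and 71.6 CPM in HFD Tert and 37.1, 170.0 and 68.9 CPM in HFD TertCi. All 4 groups overlapped, and the highest value was a single HFD TertCi library. The log2 fold change for diet was 0.42 ± 0.59 with a 95% interval from -0.89 to 1.73 (adjusted p = 0.675, edgeR). It was -0.35 for HFD Tert (adjusted p = 0.799) and 0.54 for HFD TertCi (adjusted p = 0.692), and the latter was -0.25 without HFD TertCi replicate 31.

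Stab1 (chr14:31139013-31168641, minus strand) encodes stabilin-1, a scavenger receptor of macrophages and sinusoidal endothelium. Its level was 96.2, 98.4 and 46.1 CPM in SD mCherry and 94.6, 190 and 238 CPM in HFD mCherry. It was 139, 124 and 222 CPM in HFD Tert and 93.3, 283 and 168 CPM in HFD TertCi. HFD mCherry replicate 15 lay among the SD mCherry libraries. HFD Tert lay wholly above SD mCherry, with an edgeR log2 fold change of 1.01 ± 0.47 that was not called (adjusted p = 0.328). By edgeR the log2 fold change was 1.12 ± 0.47 for diet (adjusted p = 0.187). It was -0.11 ± 0.47 for HFD Tert and 0.06 ± 0.47 for HFD TertCi against HFD mCherry, with 95% intervals from -1.14 to 0.93 and from -0.97 to 1.10 and adjusted p-values of 0.933 and 0.964. The HFD Tert value was 0.015 with library-size scaling and the HFD TertCi value -0.41 without HFD TertCi replicate 31. Stab1 overlaps Nt5dc2 on the other strand.

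Pf4 (chr5:90772435-90773383, plus strand) encodes the chemokine CXCL4, made by platelets and by some macrophages. Its level was 40.4, 64.6 and 27.1 CPM in SD mCherry and 86.6, 172 and 141 CPM in HFD mCherry. It was 55.8, 41.7 and 117 CPM in HFD Tert and 46.1, 97.0 and 81.0 CPM in HFD TertCi. All 3 HFD mCherry libraries were above all SD mCherry libraries, and only HFD Tert replicate 27 and HFD TertCi replicate 31 reached their range. The diet log2 fold change was 1.6 ± 0.47 (adjusted p = 0.0947, edgeR). Of the 12 fits that each left out 1 library, it passed the threshold only without HFD mCherry replicate 15 (edgeR adjusted p = 0.0398). Those for HFD Tert and HFD TertCi were -0.90 and -0.84 (adjusted p = 0.351 and 0.422). The platelet gene Ppbp stood at 0.713 to 12.2 CPM and Gp9 at 0.174 to 4.47 CPM. Over the 12 libraries Pf4 had a Pearson r of 0.33 with the mean of 8 tested platelet and megakaryocyte genes. It had 0.91 with the general macrophage list and 0.92 with a fibroblast and progenitor list. As deviations from group means, the r of Pf4 was 0.62 with the platelet genes and 0.89 with the general macrophage list.

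Gas6 (chr8:13465374-13494490, minus strand) encodes the bridging ligand that links phosphatidylserine on dying cells to the receptors Tyro3, Axl and Mertk (the TAM receptors). Its level was 221, 329 and 152 CPM in SD mCherry and 162, 275 and 258 CPM in HFD mCherry. It was 286, 394 and 439 CPM in HFD Tert and 242, 600.0 and 350.4 CPM in HFD TertCi. The diet groups overlapped fully, while all HFD Tert libraries and 2 of the 3 HFD TertCi libraries were above all HFD mCherry libraries. Gas6 had an edgeR log2 fold change of -0.02 ± 0.38 for diet, with a 95% interval from -0.86 to 0.83 (adjusted p = 0.983). It was 0.69 ± 0.39 for HFD Tert (adjusted p = 0.388) and 0.78 ± 0.39 for HFD TertCi (adjusted p = 0.382), directions opposite to those of Folr2. Gas6 overlaps Tmem255b on the other strand.

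Of the other TAM genes, Axl, Mertk and Pros1 had higher means with diet and lower means in HFD Tert and HFD TertCi. Tyro3 went the other way with diet and in HFD Tert. Axl was at 414 ± 181 CPM in HFD mCherry and at 160 ± 19 in SD mCherry, 186 ± 31 in HFD TertCi and 224 ± 35 in HFD Tert (SD, n = 3), with edgeR log2 fold changes of 1.37 for diet, -0.89 for HFD Tert and -1.16 for HFD TertCi (adjusted p = 0.0727, 0.238 and 0.203). Pros1, the second ligand, was at 78.2 ± 11.7 CPM in SD mCherry and 229 ± 96 in HFD mCherry, with a diet log2 fold change of 1.55 (adjusted p = 0.106). Its edgeR log2 fold changes were -0.40 for HFD Tert and -0.62 for HFD TertCi (adjusted p = 0.692 and 0.556). Mertk stood between 10.2 and 21.2 CPM in the group means and Tyro3 between 3.44 and 12.8 CPM, with diet log2 fold changes of 0.50 and -0.31 (adjusted p = 0.515 and 0.802). For HFD Tert and HFD TertCi the edgeR values of Mertk were -0.99 and -1.05 (adjusted p = 0.324 and 0.337). Those of Tyro3 were 1.26 and -0.63 (adjusted p = 0.388 and 0.698). None of the 5 genes of the list was called by edgeR in any of the 3 comparisons with HFD mCherry. At an unadjusted p under 0.05, 2 were higher with diet, beside 14.1% of all genes. By the same rule 1 was lower in HFD Tert, beside 9.75%, and 2 were lower in HFD TertCi, beside 8.92%.

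F13a1 (chr13:36867178-37050244, minus strand) encodes the A chain of coagulation factor XIII, a transglutaminase. Its level was 40.1, 75.5 and 11.5 CPM in SD mCherry and 84.8, 172 and 139 CPM in HFD mCherry. It was 45.1, 18.7 and 109 CPM in HFD Tert and 31.7, 75.7 and 60.6 CPM in HFD TertCi. Every HFD mCherry library was above every SD mCherry and HFD TertCi library. F13a1 had edgeR log2 fold changes of 1.64 ± 0.72 for diet (adjusted p = 0.196), -1.19 for HFD Tert (adjusted p = 0.414) and -1.24 for HFD TertCi (adjusted p = 0.439). Its span overlaps the antisense genes Gm49144 and Gm30489.

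Cbr2 (chr11:120729489-120732114, minus strand) encodes a carbonyl reductase that is also abundant in lung. Its level was 43.5, 69.6 and 74.6 CPM in SD mCherry and 45, 56.4 and 42.9 CPM in HFD mCherry. It was 92.7, 75.8 and 41.7 CPM in HFD Tert and 58.2, 45.9 and 71.9 CPM in HFD TertCi. All groups overlapped. By edgeR its log2 fold changes were -0.38 ± 0.31 for diet (adjusted p = 0.455), 0.54 ± 0.31 for HFD Tert (adjusted p = 0.401) and 0.29 ± 0.31 for HFD TertCi (adjusted p = 0.693).

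Leaving out single libraries moved several of these edgeR fold changes by more than 1.5 times on the unlogged scale. The values below are log2. Without HFD Tert replicate 27, the HFD Tert log2 fold change was -3.50 for Folr2, -2.67 for Cd163, -2.05 for F13a1, -1.79 for Mrc1 and -1.74 for Timd4. Without SD mCherry replicate 2, the diet value was 3.54 for Folr2, 2.36 for F13a1 and 2.11 for Cd163. These 2 libraries were the highest of their groups for each gene named with them. Other omissions made the same differences smaller. Without HFD Tert replicate 26, the HFD Tert value was -2.04 for Folr2, -1.16 for Cd163, -0.78 for F13a1, -0.69 for Mrc1 and -0.50 for Timd4. Without SD mCherry replicate 3, the diet value was 2.42 for Folr2, 1.19 for F13a1 and 1.07 for Cd163.

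HFD Tert and HFD TertCi were compared directly. All 10 members overlapped between these groups, beside 2.55% of all genes that were higher and 2.58% that were lower in HFD Tert without overlap. With edgeR 0 members were called and 0 had an unadjusted p under 0.05, beside 0% and 1.36% of all genes. DESeq2 and limma-voom also called 0 members, beside 0.0419% and 0% of all genes. The log2 fold change of HFD Tert over HFD TertCi ran from -0.89 for Lyve1 to 0.26 for Cbr2. The intervals were wide: the 95% interval ran from -1.61 to 1.67 for Folr2, from -2.21 to 0.42 for Lyve1, from -1.07 to 0.94 for Pf4 and from -0.94 to 0.75 for Gas6. Equal levels are therefore not shown.

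Each member was then set against the general macrophage list of the same library, as a log2 ratio of its level to the list's mean (limma on log2 CPM). Folr2 was the only member with a higher mean ratio in HFD mCherry than in SD mCherry, at -0.31 ± 0.20 against -1.35 ± 1.02 (SD, n = 3), a log2 difference of 1.04 with an adjusted p of 0.0916. These groups overlapped, with SD mCherry replicate 2 at -0.38 and HFD mCherry replicate 15 at -0.54. Without SD mCherry replicate 3 the difference was 0.51. The Folr2 ratio was -1.43 ± 0.70 in HFD Tert and -1.29 ± 0.33 in HFD TertCi, below all HFD mCherry libraries, with log2 differences of -1.11 and -0.98 (adjusted p = 0.0900 and 0.145), and 0.305% and 0.55% of all genes were lower without overlap in this ratio. With Adgre1 alone as the reference the Folr2 differences were 0.071, -0.12 and -0.16. Over 5 other settings, that one included, the adjusted p ran from 0.0827 to 0.920 for diet, from 0.0134 to 0.867 for HFD Tert and from 0.0580 to 0.829 for HFD TertCi. The ratios of Mrc1, F13a1, Cd163, Pf4 and Timd4 differed by -0.65 to -0.01 with diet, by -0.20 to 0.75 in HFD Tert and by -0.15 to 0.88 in HFD TertCi, and none of these was called. For these 5 genes the higher mean level on the high-fat diet went with a general macrophage level that was higher by as much or more.

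The ratios of Lyve1, Gas6, Cbr2 and Stab1 did differ, but the reference list itself moved. Its mean was 7.05 log2 CPM for HFD mCherry, against 5.09 (SD mCherry), 5.31 (HFD Tert) and 5.56 (HFD TertCi). A gene of unchanged level thus gets a lower ratio with diet and a higher one where the list is lower again. In level, edgeR called 0 members in these comparisons. A called ratio here therefore does not show that the member itself changed. With diet, the ratio of Gas6 was lower by a log2 difference of -1.94 ± 0.41 (SE, adjusted p = 0.00902), that of Cbr2 by -2.31 ± 0.65 (adjusted p = 0.0114) and that of Lyve1 by -1.53 ± 0.45 (adjusted p = 0.0130), each without overlap as in 80% of all genes, and Stab1 had -0.86 ± 0.39 (adjusted p = 0.0599). In HFD Tert the ratio was higher than in HFD mCherry by 2.44 for Gas6 (adjusted p = 0.00581), 1.68 for Stab1 (adjusted p = 0.00863), 2.21 for Cbr2 (adjusted p = 0.0178) and 1.32 for Lyve1 (adjusted p = 0.0303). In HFD TertCi it was higher by 2.21 for Gas6 (adjusted p = 0.0152), 1.84 for Lyve1 (adjusted p = 0.0218) and 1.51 for Stab1 (adjusted p = 0.0230), and Cbr2 had 1.76 (adjusted p = 0.0542). These 3 lower, 4 higher and 3 higher members stand beside 74.1%, 54% and 32.2% of all genes called in the same direction, so the share of members was no higher than that of genes at large. With HFD TertCi, 0 members were called without HFD mCherry replicate 17 or 20 or without HFD TertCi replicate 30 or 33, and of all genes at most 0.0234% were called in those fits. Between HFD Tert and HFD TertCi, 0 members and 0% of all genes had a called ratio, with 0 members at an unadjusted p under 0.05.

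**Figure D3:**
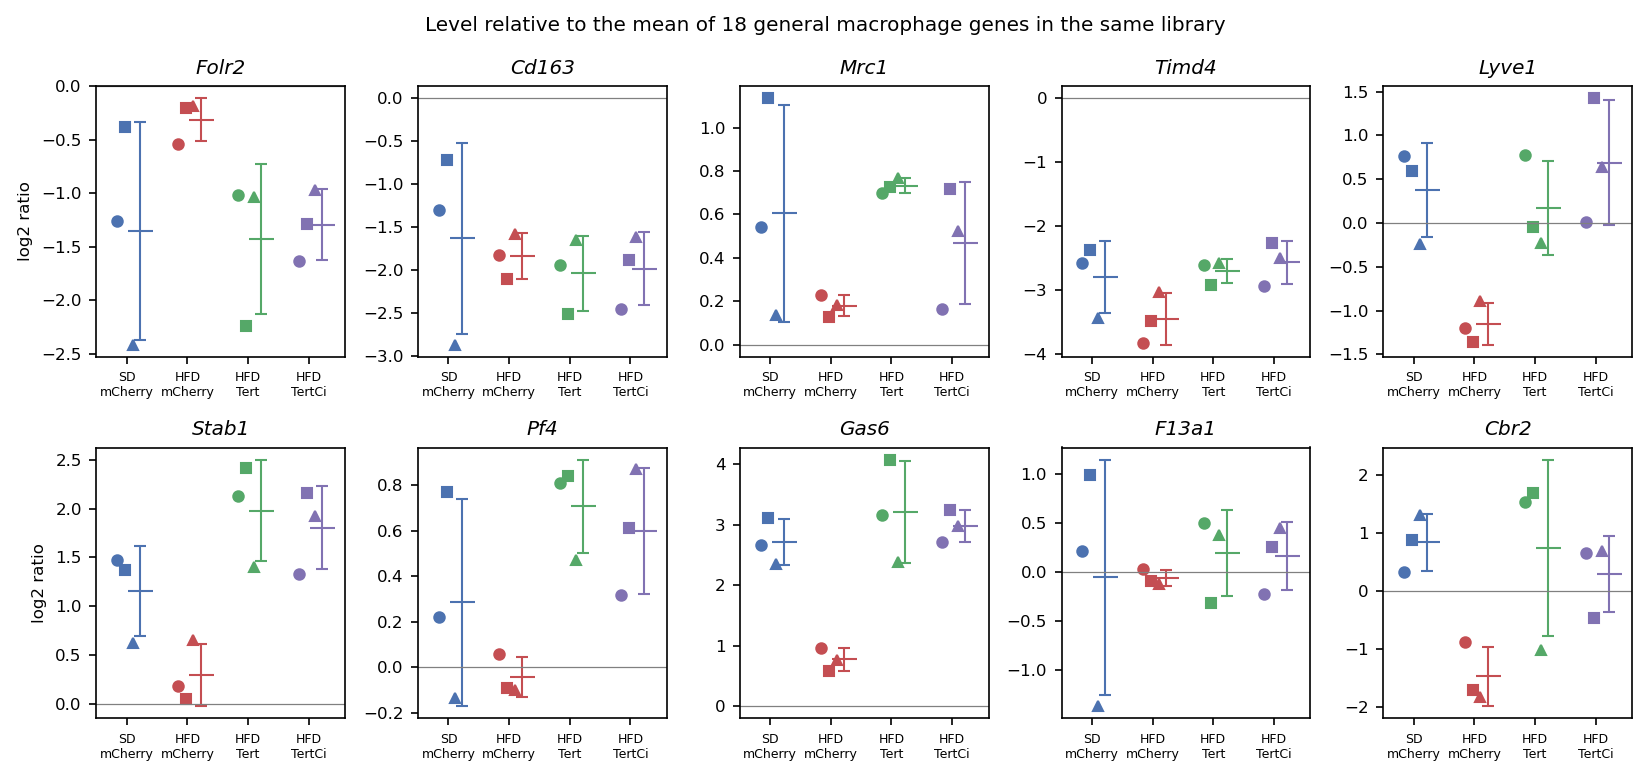
Log2 ratio of each gene to the mean of the 18 general macrophage genes in the same library, with points for the 12 libraries and the group mean with its SD beside them (n = 3), where 0 means the level of the list. The ratios of Lyve1, Stab1 and Gas6 are low in the HFD mCherry group (Gas6 0.58 to 0.96, against 2.35 to 3.11 in SD mCherry). The mean ratio of Folr2 is highest there, with SD mCherry replicate 2 (-0.38) above HFD mCherry replicate 15 (-0.54).

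The members fell into sets by how they varied over the 12 libraries. Timd4, Folr2, Cd163, Mrc1, F13a1 and Pf4 had a Pearson r of 0.88 to 0.97 in their 15 pairs of log2 CPM, and 0.90 to 0.98 as deviations from the group means. Lyve1 had an r of 0.58 to 0.84 with these 6 genes and Stab1 0.59 to 0.84, while Lyve1 and Stab1 had an r of 0.80 with each other. Gas6 had an r of 0.04 to 0.43 with the 6 genes over all libraries but 0.65 to 0.81 as deviations from group means. Cbr2 had a negative r with all 9 others, from -0.63 to -0.06. The libraries share their normalisation and differ in cell make-up, so these values describe the libraries and carry no test.

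Set beside marker lists with the members taken out, Folr2 and Mrc1 had an r of 0.95 and 0.94 with the general macrophage list (Spearman 0.94 and 0.95), and Timd4, Cd163, F13a1 and Pf4 had 0.86 to 0.91 (Spearman 0.89 to 0.96). With the list of other resident macrophage genes, F13a1 had an r of 0.98, Pf4 0.96, Mrc1 0.95, Cd163 and Folr2 0.93 and Timd4 0.92. These genes also had an r of 0.84 to 0.92 with the fibroblast and progenitor list and 0.89 to 0.94 with the dendritic cell list. Timd4, Cd163 and F13a1 had a higher Pearson r with the dendritic cell list (0.94, 0.92 and 0.90) than with the general macrophage list (0.86, 0.88 and 0.87). By Spearman this order held for Timd4 (0.92 against 0.89). It was the opposite for Cd163 (0.90 against 0.94) and F13a1 (0.91 against 0.96). Pf4 had 0.92 with the fibroblast list and 0.91 with the general macrophage list (Spearman 0.92 and 0.94). Stab1 and Lyve1 had an r of 0.86 and 0.81 with the lymphatic endothelium list (Spearman 0.90 and 0.88). With the general macrophage list they had a lower r of 0.60 and 0.53 (Spearman 0.60 and 0.73). With the other resident macrophage genes they had 0.77 and 0.66, and with the dendritic cell list 0.71 and 0.77. Stab1 had 0.87 with blood endothelium. As deviations from group means, the 9 members other than Cbr2 all had an r of 0.81 to 0.99 with the lymphatic list, Stab1 and Lyve1 having 0.99 and 0.95 and Timd4 0.94. Gas6 had an r of 0.85 with lymphatic endothelium (Spearman 0.69), 0.82 with blood endothelium (Spearman 0.84), 0.37 with the other resident macrophage genes and 0.04 with the general macrophage list. As deviations from group means, its r with these macrophage lists was 0.78 and 0.62. Cbr2 had an r of 0.73 with the mural list (smooth muscle and pericyte genes, Spearman 0.79) and -0.62 with the general macrophage list. The lymphatic markers Prox1 (1.12 to 6.40 CPM), Flt4 (9.96 to 52.0 CPM) and Mmrn1 (17.9 to 141 CPM) were detected in all libraries. From SD mCherry over HFD mCherry and HFD Tert to HFD TertCi, the mean of their list, Lyve1 included, was 4.34, 4.48, 4.87 and 4.87 log2 CPM. In the same order the blood endothelium list was at 6.50, 7.46, 7.94 and 7.96 log2 CPM and the mural list at 8.17, 7.38, 8.61 and 8.44. The part of these cell types in the levels of Lyve1, Stab1, Gas6 and Cbr2 was not tested.

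**Figure D4:**
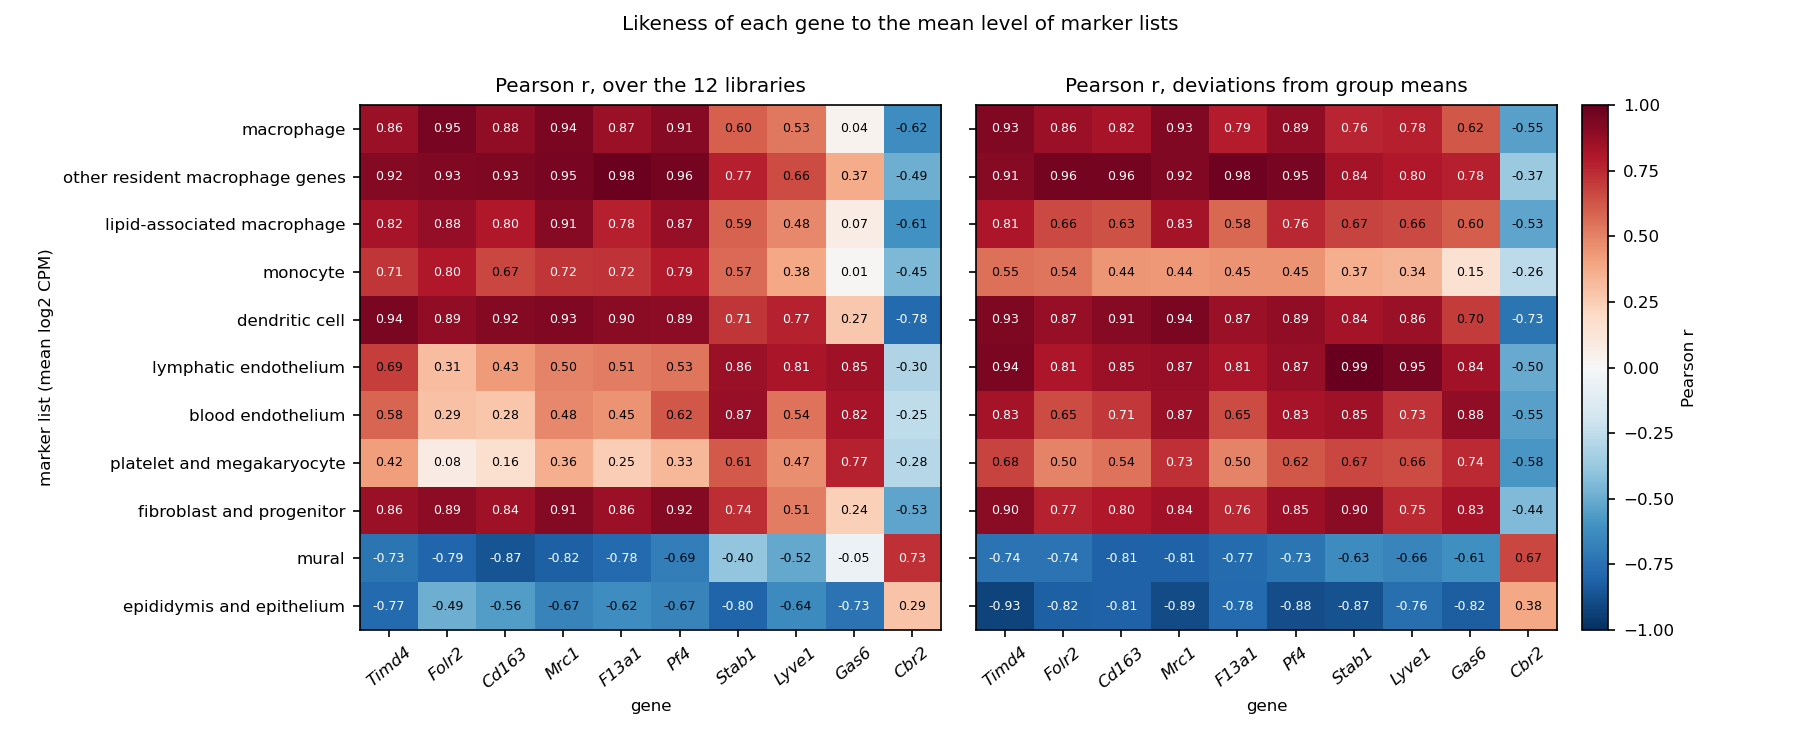
Pearson r of each gene (columns) with the mean log2 CPM of each marker list (rows) over the 12 libraries on the left and as deviations from the group means on the right, on a colour scale from -1 to 1. The 6 genes at the left have a high r with the macrophage, dendritic cell and fibroblast lists, Stab1 and Lyve1 reach 0.86 and 0.81 with lymphatic endothelium, and Cbr2 is positive with the mural list at 0.73.

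The members also moved with the epididymis and epithelium list. As deviations from group means, 9 of the 10 had an r of -0.93 to -0.76 with it, and Cbr2 had 0.38. In 3 of the 4 groups the library highest in that list was the lowest of its group for Lyve1, Timd4, Folr2, Cd163, Mrc1, F13a1, Pf4 and Stab1, and this held in 4 of 4 groups for Gas6 and in 0 of 4 for Cbr2. With the list's level as a covariate in edgeR, a setting that also called more of all genes, 3 members were called for diet (Folr2, Mrc1 and Pf4, all higher, beside 7% of all genes), 5 for HFD Tert (Timd4, Folr2, Cd163, Mrc1 and Pf4, all lower, beside 5.81%) and 2 for HFD TertCi (Folr2 and Mrc1, both lower, beside 3.57%). The Folr2 log2 fold changes in that fit were 2.55, -3.05 and -2.42. Without HFD mCherry replicate 15 and SD mCherry replicate 3 together, a setting chosen after the data were seen, 0 members were called in the 3 comparisons, beside 11%, 2.25% and 3.91% of all genes, and Folr2 stood at 2.75, -2.83 and -2.86 (edgeR adjusted p = 0.0715, 0.0817 and 0.0704). Leaving out HFD mCherry replicate 15 alone, 2 members (Folr2 and Pf4) were called for diet, beside 12.2% of all genes.

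**Figure D5:**
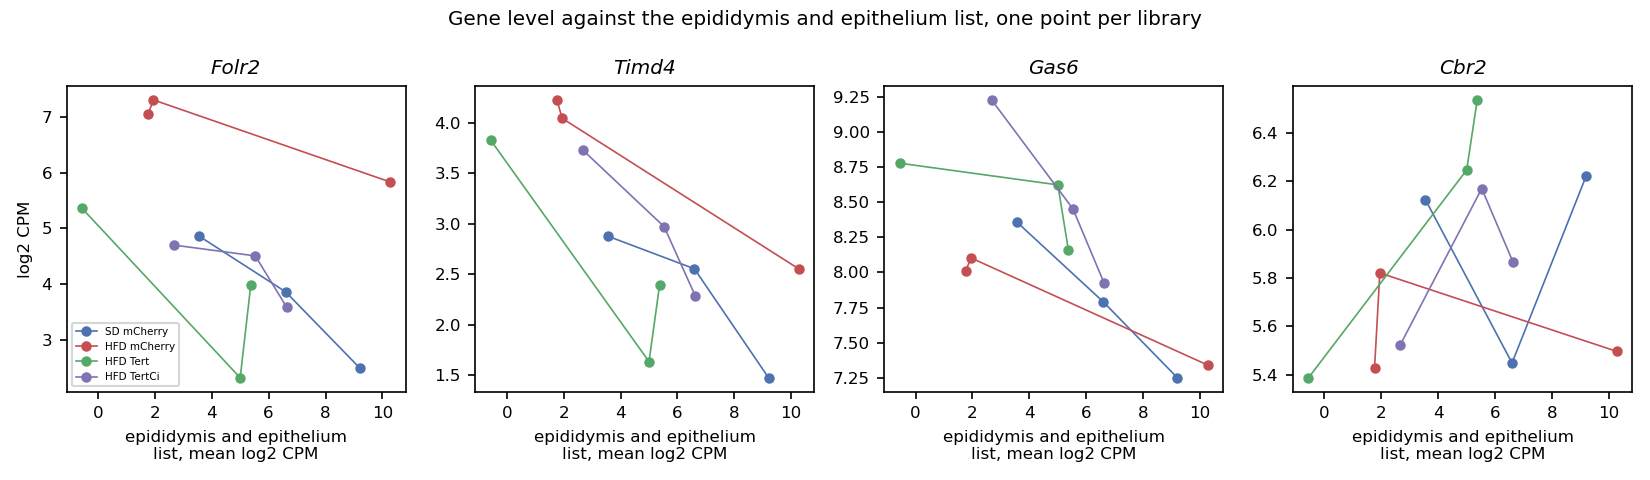
Log2 CPM of Folr2, Timd4, Gas6 and Cbr2 (vertical axes, each with its own range) against the mean log2 CPM of the epididymis and epithelium list (horizontal axes), 1 point per library, with lines joining the 3 libraries of a group. Folr2, Timd4 and Gas6 tend to be lower where the list is higher within a group. The HFD mCherry points of Folr2, at list levels of 1.76, 1.95 and 10.27, lie above all points of the other groups.

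In each group 1 library had Crisp1 under 1 CPM, namely SD mCherry replicate 2, HFD mCherry replicate 20, HFD Tert replicate 27 and HFD TertCi replicate 31, and the members were read in these 4 alone. With 1 library per group there is no test. Folr2 stood at 29.0, 133, 41.0 and 25.9 CPM in that order, Mrc1 at 83.4, 172, 143 and 104 CPM and Pf4 at 64.6, 141, 117 and 97.0 CPM. Of the 10 members, 6 (Timd4, Folr2, Cd163, Mrc1, F13a1 and Pf4) were highest in the HFD mCherry library, whereas Lyve1, Gas6 and Stab1 were highest in the HFD TertCi library and Cbr2 in the SD mCherry library. The Folr2 ratio of HFD mCherry to SD mCherry was 4.59 in these libraries, against 7.12 in the fit to all libraries, and those of Mrc1 and Pf4 were 2.06 and 2.19, against 2.82 and 3.03. The HFD Tert library held 0.834 of the Mrc1 level and 0.826 of the Pf4 level of the HFD mCherry library, against 0.498 and 0.535 in the fit to all libraries, while for Folr2 the values were 0.308 and 0.177. For HFD TertCi they were 0.605 against 0.445 (Mrc1), 0.686 against 0.560 (Pf4) and 0.195 against 0.173 (Folr2). For these genes the SD mCherry, HFD Tert and HFD TertCi libraries were the highest of their groups, and HFD mCherry replicate 20 was not.

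Other genes used to mark resident macrophages were counted in the same comparisons. Of 24 such genes, 21 had a higher mean on the high-fat diet and 3 a lower one (median log2 fold change 1.11). A lower mean was found for 21 in HFD Tert and 21 in HFD TertCi (medians -0.58 and -0.65). The medians of all genes were -0.08, -0.05 and -0.04 in these comparisons. None was called by edgeR in these comparisons. At an unadjusted p under 0.05, 8 were higher with diet, beside 14.1% of all genes. By the same rule 4 were lower in HFD Tert, beside 9.75%, and 5 were lower in HFD TertCi, beside 8.92%. Id3 was higher by that rule in HFD TertCi, with an edgeR log2 fold change of 0.99 (adjusted p = 0.313). The most abundant were Sepp1 (selenoprotein P), Ccl7 (a monocyte chemokine) and Id3 (an inhibitor of helix-loop-helix factors), which differed from each other. Sepp1 was at 567 ± 125 CPM in SD mCherry and 1650 ± 671 in HFD mCherry, and at 763 ± 362 in HFD Tert and 727 ± 282 in HFD TertCi (SD, n = 3). Ccl7 was at 345 ± 129 CPM in SD mCherry and 1044 to 1076 CPM in the means of the 3 high-fat diet groups. Id3 was at 285 ± 92 CPM in HFD mCherry and at 529 ± 345 in SD mCherry, 568 ± 103 in HFD TertCi and 540.2 ± 116.7 in HFD Tert. Against HFD mCherry, its means in HFD Tert and HFD TertCi were higher, as for Gas6 and unlike Folr2. For diet its edgeR log2 fold change was -0.89, whereas that of Gas6 was -0.02 ± 0.38 (SE). The edgeR adjusted p for diet was 0.0933, 0.123 and 0.224 for Sepp1, Ccl7 and Id3.

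General macrophage genes had larger median differences than the members. All 18 had a higher mean on the high-fat diet, with a median log2 fold change of 2.19, and the medians in HFD Tert and HFD TertCi were -1.77 and -1.81. The 15 genes of the lipid-associated macrophage list had medians of 3.21, -2.30 and -2.36. Folr2, at 2.83, -2.50 and -2.53, was the only member beyond the medians of the general list. Of 18 genes for clearing apoptotic cells 15 were higher with diet (median 0.97), and of 15 scavenger and endocytic receptors 13 were higher (median 1.37), while 14 hyaluronan genes were split 7 and 7 (median 0.26). In these lists 0 genes were called by edgeR in the 3 comparisons, beside 0.0479%, 0% and 0.012% of all genes. At an unadjusted p under 0.05, 14.1% of all genes were higher with diet. By the same rule 15 general macrophage genes, 12 of the lipid-associated list, 9 for clearance, 11 scavenger receptors and 5 hyaluronan genes were higher.

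Among the 12347 genes averaging 5 CPM or more, those with levels most like the mean of the standardised members over the 12 libraries were Akna (r = 0.97), Tle3 (0.97), Mllt6 (0.97), Dok2 (0.97) and Asap2 (0.96). For single members, the closest gene was Cd300lb for Folr2 (r = 0.98), Alox5ap for Mrc1 (0.99), Ccl6 for Pf4 (0.99), Akna for Timd4 (0.99), Ccr1 for Cd163 (0.98) and Cfp for F13a1 (0.98). It was Zc3h3 for Lyve1 (0.93), 4931406P16Rik for Stab1 (0.99), Map3k7cl for Gas6 (0.97) and Fto for Cbr2 (0.92). These are the highest values over all genes compared in the same 12 libraries, and they describe likeness only.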

How the data were processed

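The authors deposited 1 table of read counts per gene symbol for each of the 12 libraries, per the file headers. Subread, SAMtools, featureCounts 1.6.4 and build mm10 are named, with no role, per the submitters' processing notes, and annotation and strand are not given in the sources used here. Counts were used as deposited (0 lines without a gene name), with 16430330 to 19486965 per library, so counting error is small beside the spread between libraries. No replicates were near duplicates (chi-square per degree of freedom at least 20.5).

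Genes were kept by filterByExpr (16713) and fitted over all 12 libraries with edgeR 4.0.16 in R 4.3.3, with TMM factors (0.854 to 1.15), robust quasi-likelihood tests and no covariate. The biological coefficient of variation shared by all genes was 0.536. P-values are 2-sided and Benjamini-Hochberg adjusted over all genes within a comparison, called under 0.05. CPM values use TMM-scaled library sizes, and log2 CPM a prior count of 2. Ratios to the macrophage list were fitted with limma 3.58.1 (trend, robust). Alternatives were DESeq2 1.42.0, limma-voom, library-size scaling, no filter, 2-group fits, an epithelial covariate, other reference genes, a prior count of 0.5 and leaving out libraries. The fits were tested on simulated counts.

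Every member was named, with the up to 3 most abundant genes of other lists, all TAM genes and the 5 genes most like the members; only those that bear on a member are described. Further genes (Ppbp, Gp9, Prox1, Flt4, Crisp1) were chosen after their values were seen. The members and lists were chosen with earlier results of these data known. Members were matched by symbol to GENCODE M21 and to RefSeq promoters (GRCm38.p6).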

Additional observations from a re-analysis of the deposited data

How the results depend on the processing

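No paired analysis was possible because no replicate number occurs in more than 1 group. The counts of called members were 0 with edgeR in every comparison and in the F-test. With DESeq2 they were 2 for diet, 1 for HFD Tert, 1 for HFD TertCi and 1 in the F-test (Folr2 in each, with Pf4 for diet), and with the epithelial covariate 3, 5, 2 and 3 (in the F-test, 13.6% and 7.93% of all genes); in the other 3 comparisons both gave 0. Leaving out 1 library gave 0 to 2 for diet (2 without HFD mCherry replicate 15). Limma-voom, library-size scaling, no filter and the 2-group fits gave 0 in the comparisons they were run on. For the ratio to the macrophage list, Adgre1 alone as reference gave 6, 7 and 6 members for diet, HFD Tert and HFD TertCi, and Csf1r alone gave 6 for HFD TertCi, beside 86.1%, 74%, 54.2% and 56.7% of all genes. Leaving out 1 library gave 1 to 4, 2 to 5 and 0 to 4: 1 without HFD mCherry replicate 17, then 2 without HFD mCherry replicate 17 or 20 or HFD Tert replicate 25 or 26, and 0 without HFD mCherry replicate 17 or 20 or HFD TertCi replicate 30 or 33. In those fits 25.8%, 11.2% to 17.9% and at most 0.0234% of all genes were called, against 74.4%, 54% and 32.3% with every library. The cause was not tested.

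Some single-gene values changed sign. Gas6 for diet was 0.026 with limma-voom and 0.023 in the 2-group fit, and -0.25 to 0.31 leaving out 1 library. For HFD Tert, Stab1 was 0.015 with library-size scaling and -0.40 to 0.19 leaving out 1 library, and Lyve1 -0.71 to 0.00115. For HFD TertCi, Stab1 was -0.24 without both libraries highest in epithelial genes and -0.41 to 0.37 leaving out 1 library, and Lyve1 -0.25 to 0.92. Between HFD Tert and HFD TertCi, Folr2, Cd163 and F13a1 were -0.39, -0.31 and -0.22 with limma-voom. In the same comparison Folr2, Cd163, Mrc1 and F13a1 were -0.63, -0.62, -0.28 and -0.49 with the covariate, and Cd163 was -0.000957 with library-size scaling. Leaving out 1 library there gave -1.06 to 0.44 for Cd163, -0.81 to 0.46 for F13a1, -0.97 to 0.49 for Folr2, -0.35 to 0.33 for Gas6, -0.63 to 0.57 for Mrc1, -0.61 to 0.20 for Pf4, -0.48 to 0.31 for Stab1 and -1.07 to 0.24 for Timd4. The Cd163 ratio was 0.79 and 0.68 (Adgre1) and 0.00178 and 0.32 (Csf1r) for HFD Tert and HFD TertCi. Leaving out 1 library gave it -0.83 to 0.25 for diet, -0.39 to 0.037 for HFD Tert and -0.33 to 0.089 for HFD TertCi, and gave the F13a1 ratio -0.66 to 0.52 for diet. Counting error was largest for Timd4, which had as few as 46 counts in a library.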
